A study of Mus musculus with 12 samples.

Results

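The 8 genes described here encode the IFN-γ receptor and the proteins that carry and limit its signal: the receptor chains Ifngr1 and Ifngr2, the kinases Jak1 and Jak2, the transcription factors Stat2 and Stat3, and the feedback inhibitors Socs1 and Socs3. They were chosen by symbol, for their known roles and by no rule on a measured value, but with earlier results of these data known. They are 8 of the 55536 genes in the table. All 8 were expressed in cultured mouse oligodendrocyte precursor cells (OPCs) and passed the filter on low counts. In OPCs given IFN-γ, 6 of the 8 rose: Socs1 by 109-fold, Stat2 by 14.9-fold, Socs3 by 4.81-fold, Stat3 by 3.07-fold, Jak2 by 2.42-fold and Jak1 by 2.14-fold. The receptor chains Ifngr1 and Ifngr2 were not called in the same test, but a fit with replicate number as a block called Ifngr2 lower in both comparisons with IFN-γ. Of 18995 genes tested, that fit called 4032 in cells without an EZH2 inhibitor and 3661 in cells with it, against 1663 and 1533 without the block. Inhibition of EZH2 called none of the 8, where it called 0.405% of all genes tested without IFN-γ and 0.353% with it.

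IFN-γ is a cytokine made mainly by T cells and natural killer cells. It binds a receptor of IFNGR1 and IFNGR2 chains, to which the tyrosine kinases JAK1 and JAK2 are attached, and the activated kinases phosphorylate STAT proteins that enter the nucleus and switch on target genes. STAT2 is best known from the type I interferon pathway, where it works with IRF9, and STAT3 from the signal of the interleukin 6 family of cytokines. SOCS1 and SOCS3 are made in response to STAT signals and inhibit the JAK kinases, which closes a negative feedback loop. In OPCs, the cells that give rise to the myelin-forming oligodendrocytes, IFN-γ is known to switch on genes of antigen presentation.

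RNA-seq of total RNA was made from 12 OPC cultures in 4 groups of 3 libraries. Ctr cells received neither agent, and the labels name no vehicle. EZH2i cells received 1.5 μM EPZ011989, a small molecule inhibitor of the methyltransferase EZH2, for 4 days with renewal every 48 h. The IFN-γ group received 100 ng/ml IFN-γ for 6 h, and the group of IFN-γ with EZH2i received the 4 days of inhibitor and then both agents for the last 6 h. All cultures were primary cells from pooled brains of pups at postnatal days 4 to 6, each replicate from other litters, kept in proliferation medium with PDGF-AA and bFGF. The labels call the cells Sox10GFP+ OPCs, and the protocol gives either sorting for Sox10-driven GFP or beads against CD140a as the way they were obtained. In that mouse line GFP follows Cre expressed from Sox10, so any cell with a history of Sox10 expression carries it. Each library is also tagged with the mouse model EAE (experimental autoimmune encephalomyelitis), although the protocol describes cultures from pups and no induced disease.

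The libraries held between 17403896 and 66546017 estimated counts, a 3.82-fold range, and mitochondrial and rRNA genes took 1.52% to 3.99% of them. Replicates of one group differed by a chi-square of 32.05 to 170.9 per gene, so no library stood for another. The 6 OPC markers (Pdgfra, Cspg4, Sox10, Olig1, Olig2 and Ptprz1) summed to between 646 and 1377 TPM (abundance per transcript length, scaled to the same sum in every library) per library. The 8 microglia and macrophage markers summed to at most 0.712 TPM, with Aif1 and Tyrobp at no more than 3 counts in any library, and only 2 of the 8 passed the filter. The 6 oligodendrocyte markers summed to 320 to 851 TPM, the 5 astrocyte markers to 54.8 to 277 TPM, the 4 endothelial markers to 1.66 to 6.75 TPM and the 5 pericyte and fibroblast markers to 0.164 to 1.01 TPM. With bulk RNA, fewer cells of a type and less RNA per cell cannot be told apart.

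Levels are given below as CPM, estimated counts scaled to a common library size with TMM factors, for replicates 1, 2 and 3 in this order. Differences are log2 fold changes from edgeR's quasi-likelihood test over all 12 libraries with Benjamini-Hochberg adjustment over the 18995 genes tested, and a gene was called when its adjusted p was under 0.05. The plot of CPM in each library shows all 96 values.

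**Figure D1:**
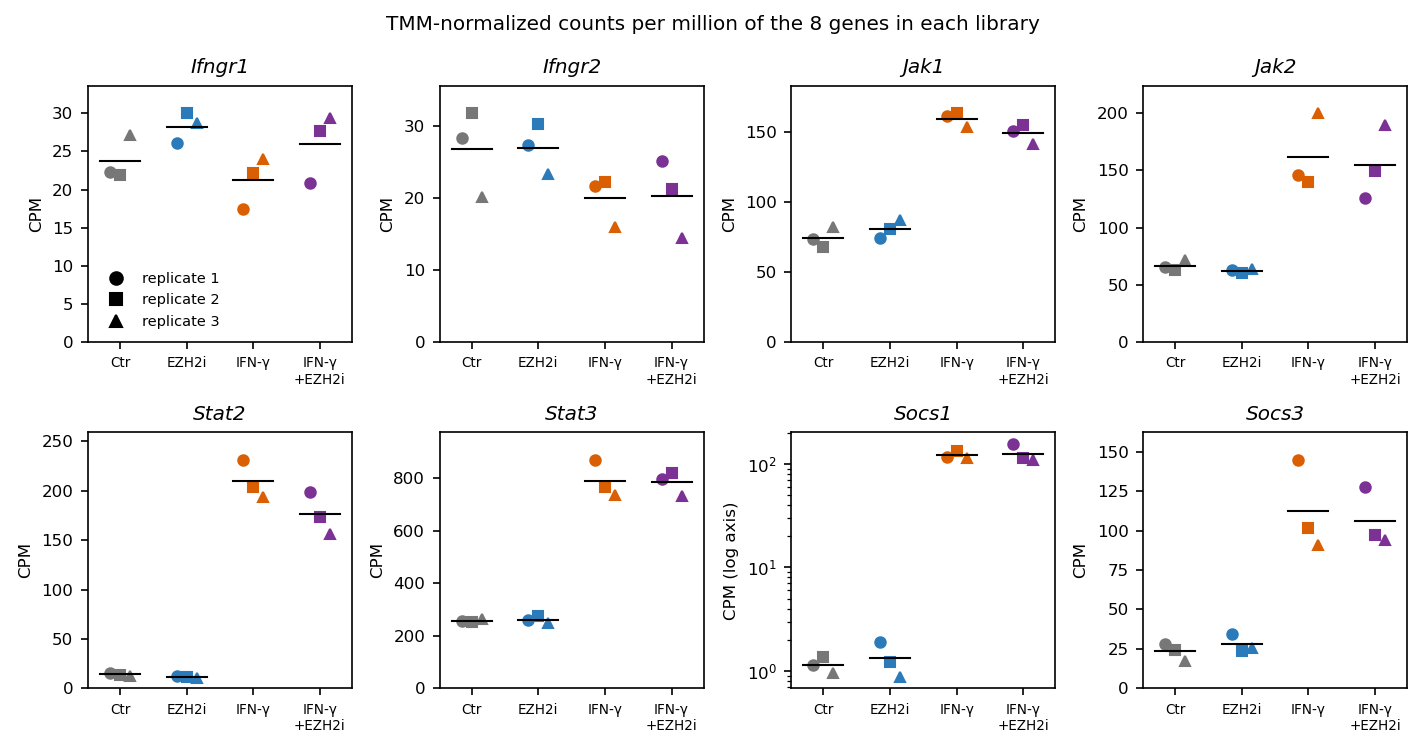
TMM-normalized counts (CPM) of the 8 genes in each library, by group; points are libraries, with a symbol for each replicate number, and horizontal lines are the means of 3. The axis of Socs1 is logarithmic and the others start at 0. The 6 libraries with IFN-γ lie above the 6 without it for Jak1, Jak2, Stat2, Stat3, Socs1 and Socs3, whereas those of Ifngr1 and Ifngr2 overlap.

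Of the 8 genes, 6 were called in IFN-γ versus Ctr, all 6 higher, where 8.75% of all genes tested were called and 6.65% were called higher. The same number was called in IFN-γ with EZH2i versus EZH2i, again 6 higher, against 8.07% of all genes called and 5.9% called higher. In both comparisons the 6 were Jak1, Jak2, Stat2, Stat3, Socs1 and Socs3. For each of the 6, every library with IFN-γ lay above every library of its comparison without it in CPM, a separation seen for 13.5% of all genes tested in IFN-γ versus Ctr and for 11.8% in the cells given EZH2i. The median log2 fold change of the 8 genes was 1.45 in each of the comparisons, beside 0.001 and 0.002 over all genes. In IFN-γ versus Ctr the OPC markers Cspg4 and Pdgfra also changed, with log2 fold changes of -1.16 and -1.07 (adjusted p = 0.00245 and 0.0141 by the same edgeR test), and both were called lower in the cells given EZH2i as well, where the replicate block called 4 of the 6 OPC markers lower. Of the other marker lists, the neuronal marker Syt1 and the fibroblast marker Lum were called higher in both comparisons without the block. With the block, which called 19.3% of all genes tested in the cells given EZH2i, Gfap was also called higher there (log2 fold change 0.46, adjusted p = 0.0184 by edgeR's test). Gfap is listed here as an astrocyte marker and below as a textbook STAT3 target. The part of these shifts in the result was not tested.

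Ifngr1 encodes the chain that binds IFN-γ and lies on chromosome 10 of GRCm38, from 19591949 to 19610229 on the plus strand. It stood at 22.3, 21.9 and 27.2 CPM in Ctr and at 17.5, 22.1 and 24.1 CPM with IFN-γ. In the cells given EZH2i it stood at 26.1, 30.0 and 28.7 CPM without IFN-γ and at 20.9, 27.7 and 29.4 CPM with it. The groups overlapped in all 4 comparisons. The log2 fold change with IFN-γ was -0.17 (95% interval -0.53 to 0.20, adjusted p = 0.690), and in the cells given EZH2i it was -0.12 (95% interval -0.48 to 0.25, adjusted p = 0.856).

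Ifngr2 encodes the second chain, which is needed for the signal, and lies on chromosome 16 from 91547072 to 91565623 on the plus strand. Its levels were 28.4, 31.7 and 20.1 CPM in Ctr and 21.6, 22.2 and 16.0 CPM with IFN-γ. With EZH2i they were 27.3, 30.3 and 23.3 CPM, and with both agents 25.2, 21.3 and 14.5 CPM. Ifngr2 was thus lower with IFN-γ in 3 of 3 replicate numbers of either comparison. The groups still overlapped, because replicate 3 was the lowest library of each of the 4 groups. The comparison with Ctr was not taken as paired, and the share of all genes with 3 of 3 in 1 direction was not counted. The log2 fold change was -0.42 in IFN-γ versus Ctr (95% interval -0.92 to 0.08, adjusted p = 0.368) and -0.41 in the cells given EZH2i (95% interval -0.91 to 0.09, adjusted p = 0.423). Replicate numbers were found to pair the libraries of IFN-γ with EZH2i and EZH2i. With the replicate block, Ifngr2 was called lower in that comparison (log2 fold change -0.44, adjusted p = 0.0134 by edgeR's test), in a fit that called 19.3% of all genes tested.

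Jak1 and Jak2 encode the tyrosine kinases bound to the IFNGR1 and IFNGR2 chains. Jak1 is on chromosome 4 from 101152367 to 101265282, on the minus strand. It rose from 73.5, 67.5 and 82.1 CPM in Ctr to 161, 163 and 153 CPM with IFN-γ, which is 2.14-fold (log2 fold change 1.10, SE 0.11, adjusted p = 2.72e-05). In the cells given EZH2i it rose from 73.7, 80.3 and 87.1 CPM to 150, 155 and 141 CPM, which is 1.85-fold (log2 fold change 0.89, SE 0.11, adjusted p = 1.67e-04). Of the 6 genes that rose, Jak1 had the smallest fold change in both comparisons. Its annotated span overlaps 4 bases of Raver2 and the small RNA gene Gm24468 on the other strand, and the pseudogene Gm12785 on its own.

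Jak2 is on chromosome 19 from 29251828 to 29313080, on the plus strand. Its level went from 65.2, 63.2 and 71.7 CPM in Ctr to 146, 139 and 199.8 CPM with IFN-γ. With EZH2i alone it was 62.7, 60.4 and 63.3 CPM, and with both agents 126, 149 and 189.6 CPM. The libraries without IFN-γ were close to one another (coefficient of variation 6.69% and 2.43%), whereas those with it spread more (20.5% and 20.7%), with replicate 3 the highest in both groups. The rise was 2.42-fold in IFN-γ versus Ctr (log2 fold change 1.28, SE 0.17, adjusted p = 3.15e-04) and 2.50-fold in the cells given EZH2i (log2 fold change 1.32, SE 0.17, adjusted p = 2.45e-04).

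Stat2 encodes a STAT protein that forms the ISGF3 complex in the type I interferon pathway, and lies on chromosome 10 from 128270559 to 128292849 on the plus strand. It was low in Ctr, at 16.0, 13.6 and 12.7 CPM, and reached 231, 204 and 194 CPM with IFN-γ. In the cells given EZH2i it went from 12.5, 11.2 and 10.7 CPM to 199, 173 and 156 CPM. The rise was 14.9-fold (log2 fold change 3.90, SE 0.15, adjusted p = 4.41e-09) and 15.4-fold (log2 fold change 3.94, SE 0.15, adjusted p = 3.57e-09). Replicate 1 was the highest and replicate 3 the lowest library of all 4 groups. The difference within a replicate number thus varied little, from 3.85 to 3.93 on the log2 scale in IFN-γ versus Ctr, although that comparison was not taken as paired.

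Stat3 encodes the main STAT protein of interleukin 6 type signals and lies on chromosome 11 from 100885098 to 100939540 on the minus strand. Its 3′ end overlaps Stat5a on the other strand by 72 bases. Its levels were 255, 251 and 265 CPM in Ctr and 869.7, 766 and 735 CPM with IFN-γ. With EZH2i it was at 259, 274 and 247 CPM, and with both agents at 797, 821 and 733 CPM. The rise was 3.07-fold (log2 fold change 1.62, SE 0.11, adjusted p = 8.73e-07) and 3.01-fold in the cells given EZH2i (log2 fold change 1.59, SE 0.11, adjusted p = 1.01e-06).

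Socs1 encodes an inhibitor that binds the JAK kinases and blocks their activity, and lies on chromosome 16 from 10782240 to 10785536 on the minus strand. In Ctr it had few reads, at 32, 24 and 56 estimated counts, or 1.13, 1.36 and 0.950 CPM. With IFN-γ it reached 117, 134 and 114 CPM, from 3492, 5035 and 7358 counts. In the cells given EZH2i it went from 1.89, 1.23 and 0.880 CPM to 155, 114 and 109 CPM. The rise, 109-fold (log2 fold change 6.77, 95% interval 6.14 to 7.40, adjusted p = 1.12e-08) and 97.5-fold in the cells given EZH2i (log2 fold change 6.61, 95% interval 5.99 to 7.22, adjusted p = 1.04e-08), was the largest of the 8 genes. Its intervals were also the widest among the 6 that rose, since the level without IFN-γ rests on 24 to 58 counts per library.

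Socs3 encodes a related inhibitor, best known for limiting signals through the receptor subunit gp130, and lies on chromosome 11 from 117966079 to 117970047 on the minus strand. Without IFN-γ it stood at 28.3, 24.4 and 17.6 CPM in Ctr and 34.6, 23.5 and 25.7 CPM with EZH2i. With IFN-γ it reached 145, 101 and 90.6 CPM, and with both agents 128, 97.5 and 94.1 CPM. Replicate 1 was the highest library in all 4 groups. The rise was 4.81-fold (log2 fold change 2.26, SE 0.24, adjusted p = 4.84e-05) and 3.81-fold in the cells given EZH2i (log2 fold change 1.93, SE 0.24, adjusted p = 1.68e-04).

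**Figure D2:**
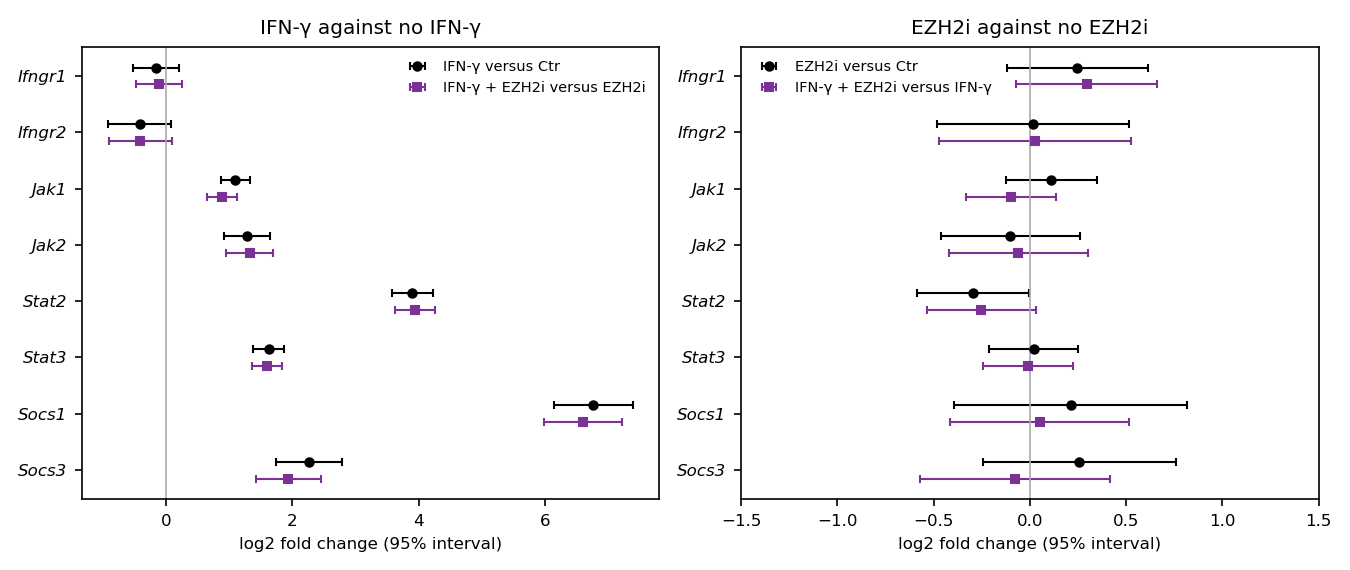
Fitted log2 fold changes of the 8 genes with 95% intervals from edgeR, for IFN-γ against no IFN-γ (left) and EZH2i against no EZH2i (right); circles are the comparisons with Ctr, and squares are those in which both groups received the other agent. The intervals of 6 genes lie above 0 on the left, and on the right every interval but that of Stat2 in EZH2i versus Ctr crosses 0.

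The promoters of the 8 genes were searched in RefSeq's sequence of GRCm38.p6, over 250 bases before and 50 bases after the annotated start, for 2 motifs on both strands. One is the GAS type, TTCNNNGAA, which STAT dimers are known to bind. The other is the ISRE type, known from ISGF3 and the IRF proteins, searched as GAAA, any 2 bases and GAAA. A promoter was found for 8 of the 8 genes. The GAS type was present in Socs3 and the ISRE type in Stat2 and Socs1, and neither in the other 5 genes. Among 32851 promoters of the same length, 8.30% held the GAS type, 3.44% the ISRE type and 11.3% at least one of them. The 3 upstream sequences that hold a match are given here since these genes include those with the largest fold changes; each is the strand of the gene, 5′ to 3′, in GRCm38.p6, with the matches in capitals.
Socs1, chr16:10785537-10785786, minus strand: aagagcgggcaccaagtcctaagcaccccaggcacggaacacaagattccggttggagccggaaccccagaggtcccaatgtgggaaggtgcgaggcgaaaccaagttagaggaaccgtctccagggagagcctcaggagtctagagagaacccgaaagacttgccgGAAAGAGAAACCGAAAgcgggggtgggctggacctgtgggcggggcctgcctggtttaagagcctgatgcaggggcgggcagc
Stat2, chr10:128270248-128270497, plus strand: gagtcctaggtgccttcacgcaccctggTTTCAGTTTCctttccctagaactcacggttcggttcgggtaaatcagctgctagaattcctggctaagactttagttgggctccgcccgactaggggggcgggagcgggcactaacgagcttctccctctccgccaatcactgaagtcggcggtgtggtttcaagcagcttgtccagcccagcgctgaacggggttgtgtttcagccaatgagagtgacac
Socs3, chr11:117969367-117969616, minus strand: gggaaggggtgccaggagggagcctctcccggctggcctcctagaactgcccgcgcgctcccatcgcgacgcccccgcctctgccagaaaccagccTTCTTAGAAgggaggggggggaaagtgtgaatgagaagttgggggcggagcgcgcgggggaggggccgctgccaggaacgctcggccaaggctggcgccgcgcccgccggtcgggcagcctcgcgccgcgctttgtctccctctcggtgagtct
In Socs1 the capitals are 2 overlapping ISRE type matches, which begin 83 and 77 bases before the start. In Stat2 the match begins 222 bases before it and is on the opposite strand, and in Socs3 the GAS type match begins 154 bases before it. The starts are RefSeq's, and the Socs3 window lies inside the GENCODE span given above for that gene, 117966079 to 117970047. Jak1, Jak2 and Stat3 also rose, with no match of these letters in their windows. A match of letters is not a measured binding site.

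EZH2i called none of the 8 genes without IFN-γ by edgeR's quasi-likelihood test, against 0.405% of all genes tested. DESeq2 also called 0 of the 8, beside 298 of the 22442 genes it tested. At an unadjusted p under 0.05 by edgeR's test there was 1 of the 8, beside 1338 of the 18995 genes tested. That gene was Stat2, whose 3 EZH2i libraries lay below the 3 Ctr libraries without overlap (12.5, 11.2 and 10.7 against 16.0, 13.6 and 12.7 CPM), as was so for 5.34% of all genes tested. Its log2 fold change was -0.30 (95% interval -0.59 to -0.00317, unadjusted p = 0.0479, adjusted p = 0.704). The other 7 genes overlapped between EZH2i and Ctr, with log2 fold changes from -0.10 for Jak2 to 0.26 for Socs3. Within the 95% intervals of the 8 genes, the lowest value was -0.59 and the highest 0.82.

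In the presence of IFN-γ, EZH2i again called 0 of the 8 by edgeR's test, against 0.353% of all genes tested. At an unadjusted p under 0.05 there were 0 of the 8, beside 1220 of the 18995 genes tested. DESeq2 called 0 of the 8, beside 259 of 23038 genes. All 8 overlapped between the groups in CPM. Of all genes tested only 10.3% did not overlap, so this does not set the 8 apart. Stat2 was again the lowest, with a log2 fold change of -0.25 (95% interval -0.54 to 0.03, adjusted p = 0.852), and it was lower in 3 of 3 replicate numbers. Ifngr1 had the highest value, 0.29 (95% interval -0.07 to 0.66, adjusted p = 0.901), and was higher in 3 of 3. Replicate numbers were found to pair the libraries of this comparison too, and the fit with the replicate block also called 0 of the 8. In that fit Stat2 had an adjusted p of 0.0583 by edgeR's test. The share of all genes with 3 of 3 replicate numbers in 1 direction was not counted. In TPM, the 5 neuronal markers summed to 6.36 to 8.04 in Ctr and 15.4 to 25.4 in EZH2i, and the oligodendrocyte markers to 650 to 851 with IFN-γ and 320 to 636 with both agents. EZH2i called none of the marker genes in either comparison, but with the replicate block and IFN-γ present it called 4 of the 6 oligodendrocyte and 1 of the 6 OPC markers lower, and 3 of the 5 neuronal, 2 of the 5 astrocyte and 1 of the 4 endothelial markers higher. In that comparison the block called 748 of the 18995 genes tested, against 67 without it. The part of these markers in the values of the 8 genes was not tested.

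Whether the response to IFN-γ differed between cells with and without EZH2i was tested as an interaction. None of the 8 was called by edgeR's quasi-likelihood test, where 0% of all genes tested were called and 127 genes had an unadjusted p under 0.05. Of the 8, 0 reached that unadjusted p, and DESeq2 called 0 of them. The estimated differences were nearest 0 for 5 genes, from -0.03 for Stat3 to 0.05 for Ifngr1 on the log2 scale. They were -0.16 for Socs1 and -0.21 for Jak1, and lowest for Socs3, at -0.33 (95% interval -1.04 to 0.37). For Stat2 the 95% interval of the difference was -0.36 to 0.45, and for Stat3 it was -0.36 to 0.30. It was -0.47 to 0.56 for Ifngr1, -0.47 to 0.55 for Jak2 and -0.70 to 0.71 for Ifngr2. Differences of that size are not excluded. The interval of Socs1, -0.92 to 0.60, was the widest of the 8.

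The deviation of each library from its group mean was set out by replicate number. Ifngr2 was lowest in replicate 3 of all 4 groups, by 0.20 to 0.45 on the log2 scale. Stat2 and Socs3 were highest in replicate 1 of all 4 groups, by 0.12 to 0.19 for Stat2 and by 0.28 to 0.40 for Socs3. Ifngr1 went the other way and was below the mean in replicate 1 of all 4 groups. For Socs1 the highest library was replicate 1 in both groups given EZH2i and replicate 2 in the others, with a deviation as large as 0.55 in EZH2i. Jak1 and Stat3 deviated by at most 0.15 in any library.

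**Figure D3:**
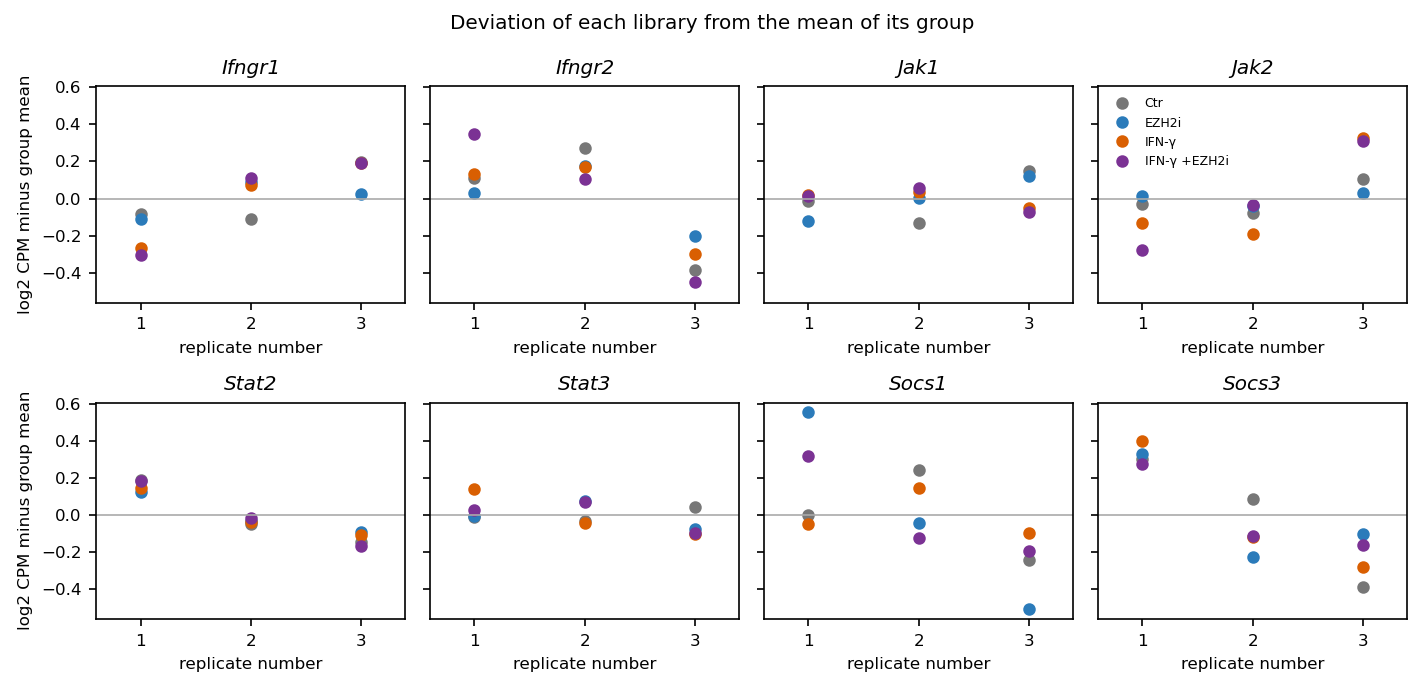
Deviation of log2 CPM (prior count 2) of each library from the mean of its group, by replicate number, for the 8 genes; each point is one library and colors are the groups. Ifngr2 is below its group means in replicate 3, and Stat2 and Socs3 are above theirs in replicate 1, in all 4 groups.

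Levels can be compared between genes only per length, as TPM. Stat3 was the highest of the 8 genes in every library, and in Ctr it stood at 64.5 ± 12.9 TPM (SD, n = 3). Next came Jak1 at 11.2 ± 2.92, Jak2 at 10.7 ± 2.91, Ifngr1 at 8.55 ± 2.91, Ifngr2 at 7.22 ± 1.50 and Socs3 at 6.44 ± 0.704 TPM, whose neighbours in this order overlapped. Stat2 at 3.56 ± 0.309 TPM and Socs1 at 0.285 ± 0.0636 TPM were below all of them and did not overlap. The order in EZH2i was much the same, with Ifngr1 and Jak2 exchanged at overlapping levels (12.2 ± 1.05 and 12.1 ± 0.253 TPM). These levels sum all transcripts of a gene. In Ctr the coding transcript Ifngr2-201 alone stood at 4.72 ± 1.06 TPM, under the mean of Socs3.

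With IFN-γ the order was another one. Stat3 remained the highest at 203.8 ± 57.5 TPM, and Stat2 came second at 61.4 ± 7.37 TPM. Socs3 (36.4 ± 8.35), Socs1 (35.6 ± 6.84), Jak2 (29.6 ± 4.64) and Jak1 (27.7 ± 3.68 TPM) followed, and neighbours among them overlapped. The receptor chains were then the lowest, at 8.73 ± 1.49 TPM for Ifngr1 and 6.40 ± 1.65 TPM for Ifngr2, with no overlap between Jak1 and Ifngr1. With both agents the order differed only in that Socs1 (33.8 ± 8.32 TPM) stood above Socs3 (32.0 ± 6.97 TPM), and here Stat2 (48.3 ± 10.4 TPM) overlapped Socs1.

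**Figure D4:**
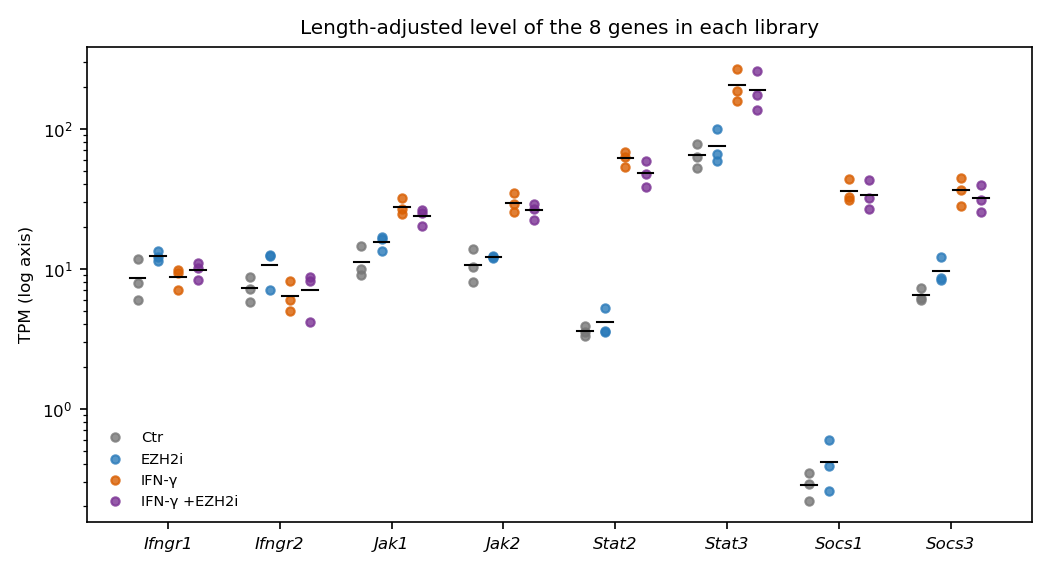
Level of the 8 genes in TPM (logarithmic axis) in each library, by group; points are libraries and short lines the means of 3. Socs1 is the lowest gene in the groups without IFN-γ and lies among Socs3, Jak2 and Jak1 with it, whereas the levels of Ifngr1 and Ifngr2 stay between 4.15 and 13.3 TPM.

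The balance of related genes shifted accordingly. Per library, the TPM of Socs1 was 0.0441 ± 0.00715 of that of Socs3 in Ctr and 1.01 ± 0.250 with IFN-γ (SD, n = 3). With EZH2i the ratio was 0.0422 ± 0.0104, and with both agents 1.05 ± 0.0290. Stat3 exceeded Stat2 by a ratio of 18.3 ± 4.80 in Ctr and 3.29 ± 0.591 with IFN-γ, and the libraries did not overlap. The ratio of Jak1 to Jak2 was 1.05 ± 0.0804 in Ctr and 0.956 ± 0.213 with IFN-γ, with overlapping libraries. That of Ifngr1 to Ifngr2, over all transcripts of each gene and not the coding ones alone, also overlapped, at 1.19 ± 0.385 and 1.41 ± 0.387. The TPM scale itself moved between groups: the median ratio over all genes was 1.21 in EZH2i versus Ctr and 1.14 in IFN-γ versus Ctr. All 8 genes had a higher mean TPM in EZH2i than in Ctr, and 5 of the 8 lay above that median, whereas in CPM Stat2 and Jak2 were lower.

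The TPM of each gene was also divided among its annotated transcripts, as estimated by the authors' software. TPM divides reads by length, so a short transcript takes a larger share of TPM than of estimated counts, and both are given for Ifngr2, Stat2 and Stat3. A single coding transcript took most of Ifngr1 (Ifngr1-201, 93.4% to 96.4% as group means), Jak1 (Jak1-201, 87.6% to 92.4%) and Socs3 (Socs3-201, 99.1% to 99.7%). Jak2 was split between Jak2-204 and Jak2-202, which both encode 1132 residues, at 65.1% and 34.9% in Ctr and 67.05% and 31.9% with IFN-γ. For Ifngr2, the coding Ifngr2-201 took 65.4% ± 4.99 in Ctr and 64.8% ± 5.87 with IFN-γ, and the rest went to Ifngr2-202, a form of 534 bases annotated for nonsense-mediated decay. Of the estimated counts, Ifngr2-201 took 95.3% ± 0.959 in Ctr and 95.2% ± 1.17 with IFN-γ, and Ifngr2-202 took 4.74% and 4.78%. In the groups given EZH2i the coding share of Ifngr2 TPM was 57.0% ± 13.3 and 54.9% ± 4.71, and with both agents it lay between 50.01% and 59.4%, below the 61.3% to 71.6% of the libraries with IFN-γ alone. By counts these groups stood at 93.05% ± 3.22 and 92.8% ± 1.29, and with both agents the range of 91.6% to 94.1% again lay below the 94.4% to 96.6% with IFN-γ alone. Without IFN-γ the groups overlapped, with TPM shares of 46.66%, 52.41% and 71.98% in EZH2i and 68.65%, 67.79% and 59.62% in Ctr. No test was made of these shares. How often the shares of other transcripts separate in this way was not counted.

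Stat2 had 43.5% ± 12.1 of its TPM in the coding form Stat2-201 (922 residues) in Ctr and 53.7% ± 3.93 with IFN-γ, and by counts 72.2% ± 24.2 and 86.8% ± 1.79. The wide spread in Ctr goes with replicate 2, in which the other coding form, Stat2-202 (923 residues), took 27.7% of TPM and 41.1% of counts, against at most 2.06% of TPM and 3.35% of counts in the other Ctr libraries. Most of the remaining TPM was in retained-intron forms, and the libraries were made from total RNA, in which unspliced RNA is also read. Stat3-203, which encodes the 770 residue form, took 50.9% ± 14.95 of Stat3 in Ctr and 61.2% ± 15.3 with IFN-γ, and was lower in replicate 1 (43.9%) than in replicates 2 and 3 (72.9% and 66.8%) of the IFN-γ group. By counts it took 81.4% ± 5.41 in Ctr and 86.1% ± 4.11 with IFN-γ, and the IFN-γ libraries stood closer together, at 81.5%, 89.4% and 87.3%. The Socs1 transcripts Socs1-201 and Socs1-202 encode the same 212 residues. In Ctr, Socs1-201 took 62.2%, 24.0% and 69.5% of Socs1 TPM, on few counts. With IFN-γ it took 78.6%, 80.8% and 84.4%, and with both agents 80.4%, 76.1% and 82.0%, so the libraries with IFN-γ were alike while those without it were scattered.

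**Figure D5:**
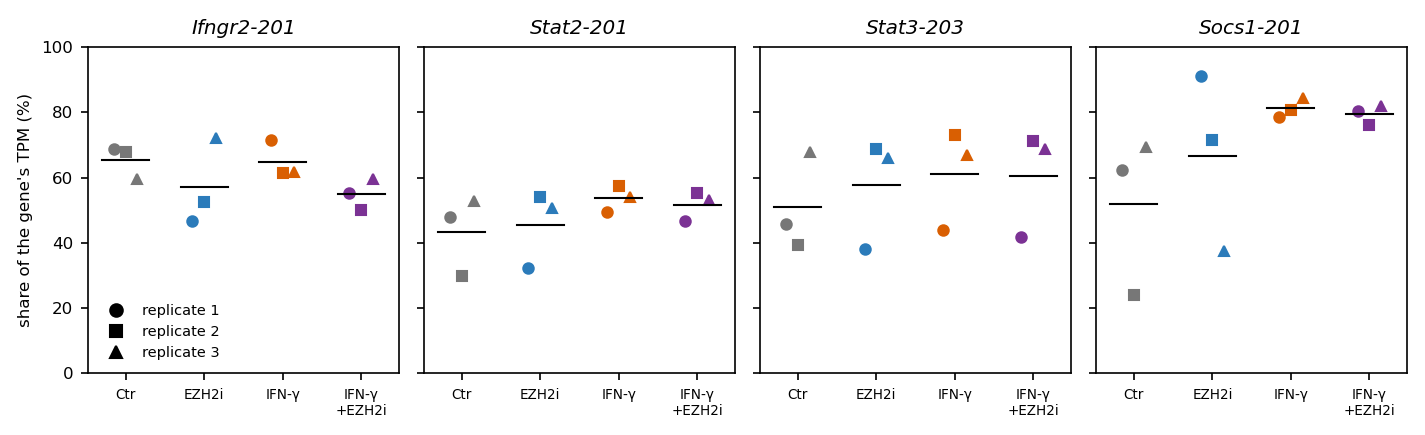
Share (percent) of a gene's TPM assigned to one coding transcript in each library, for Ifngr2-201, Stat2-201, Stat3-203 and Socs1-201; points are libraries, with a symbol for each replicate number, and lines the means of 3. The share of Socs1-201 ranges from 24.0% to 91.1% without IFN-γ and from 76.1% to 84.4% with it.

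Other proteins of the pathway were counted from lists of known genes. Of 7 other JAK and STAT proteins and partners, 6 were tested and 3 rose with IFN-γ versus Ctr: Irf9, the DNA-binding partner of STAT2 (log2 fold change 3.71, adjusted p = 5.82e-09), Jak3 (1.81, adjusted p = 0.00134) and Stat5b (0.48, adjusted p = 0.0148). Stat6, the STAT protein of interleukin 4 signals, had a log2 fold change of 0.68 and was not called (adjusted p = 0.219). The same 3 were called higher in the cells given EZH2i, and EZH2i called 0 of the 6 in either comparison. The median log2 fold change of the list was 0.58 with IFN-γ versus Ctr and 0.43 in the cells given EZH2i.

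Of 17 other negative regulators, 3 rose in IFN-γ versus Ctr and in the cells given EZH2i, and 0 fell. The replicate block called 5 higher and 1 lower in the latter. They were Socs2, a SOCS protein known for limiting growth hormone signals (log2 fold change 4.56, adjusted p = 7.14e-07), Usp18, which restrains the type I interferon receptor (6.03, adjusted p = 7.45e-07), and Cish, an inhibitor of STAT5 signals (2.54, adjusted p = 6.08e-04). Socs6 was not called (0.41, adjusted p = 0.127). Socs2 was the only gene of the pathway lists that EZH2i called without IFN-γ, with mean CPM of 0.856 ± 0.239 in Ctr against 2.71 ± 0.362 (log2 fold change 1.63, adjusted p = 0.0390). With IFN-γ present, its log2 fold change with EZH2i was 0.85 (adjusted p = 0.308 by edgeR's test), but with the replicate block it was called higher (0.83, adjusted p = 0.0233). The interaction was not called (adjusted p = 1.00).

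Among 20 cytokine receptors that signal through JAK kinases, 13 were tested, 7 rose with IFN-γ versus Ctr and 0 fell. Those with the lowest adjusted p were Il13ra1 (log2 fold change 2.93, adjusted p = 8.61e-05), the oncostatin M receptor Osmr (3.26, adjusted p = 1.91e-04), the type I interferon receptor chain Ifnar2 (1.08, adjusted p = 2.44e-04) and the interleukin 6 receptor Il6ra (2.51, adjusted p = 2.62e-04). The IFN-γ receptor chains, with log2 fold changes of -0.17 and -0.42, were not called. In the cells given EZH2i 6 of the 13 rose, and with the replicate block 7 rose and 1 fell. Of 15 cytokine ligands, 8 were tested and 1, Il7, rose in either comparison (log2 fold change 3.14 in IFN-γ versus Ctr, adjusted p = 0.00839), and with the replicate block 3 rose in the cells given EZH2i.

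The 11 textbook targets of IFN-γ all rose in IFN-γ versus Ctr, with a median log2 fold change of 7.83. Irf1, a transcription factor induced directly by IFN-γ signals, went from 11.98 ± 0.410 to 951 ± 116 CPM (log2 fold change 6.31, adjusted p = 2.98e-10), and the GTPase gene Gbp2 from 8.43 ± 1.33 to 5734 ± 370.3 CPM. Of 10 textbook STAT3 targets, 3 rose by edgeR's test: Bcl3 (log2 fold change 7.15, adjusted p = 4.21e-04), Pim1 (1.53, adjusted p = 6.26e-04) and Cebpb (2.49, adjusted p = 0.00119). Bcl3 had at most 2 estimated counts in any Ctr library, so the size of its rise is imprecise. Bcl6, with a log2 fold change of 0.49, was not called (adjusted p = 0.369). The same counts, 11 of 11 and 3 of 10, were obtained in the cells given EZH2i, where the replicate block called 5 of the 10 STAT3 targets, Gfap among them. EZH2i called none of the genes of these lists with IFN-γ present. With the replicate block it called 3 of the 11 IFN-γ targets, 1 receptor, 1 ligand and 1 negative regulator higher, and 1 STAT3 target in each direction, beside 748 of the 18995 genes tested.

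For each of the 8 genes, the 3 genes most alike in pattern were found by Pearson correlation of log2 CPM over the 12 libraries, among 14681 genes with a mean of at least 1 CPM. The libraries differ in depth and some may share a litter, and the values of 6 of the 8 genes fall into a high set with IFN-γ and a low set without it, so that any gene with a like rise ranks high. Socs1 was most like Irf8 (r = 0.998), Batf2 and Serpina3f. Stat3 was most like Batf2 (r = 0.998), the antigen presentation gene Tapbp and Irf9, and Stat2 was most like Sox11 (r = 0.997), 9930111J21Rik2 and Apol6. Socs3 stood closest to Il6ra (r = 0.993), the chemokine gene Cx3cl1 and Helz2. Jak1 was most like Mpeg1 (r = 0.992), Gm12216 and Impa1, and Jak2 most like Gm43197 (r = 0.989), Mitd1 and Pnpt1. The receptor chains had other neighbours and lower values, Acap2 (r = 0.955), Klhl24 and Oaz2 for Ifngr1, and Zfp467 (r = 0.952), Mn1 and the progenitor gene Nes for Ifngr2.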

How the data were processed

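RNA-seq libraries of total RNA from 12 cultures of mouse OPCs were analysed, 3 in each of 4 groups. The submitters' processing notes name Salmon 0.8.2, STAR, DESeq2 and the builds mm10 and GRCm38. For every transcript the authors deposited an estimated count, the reads Salmon assigned to it, and a TPM value, which corrects for effective length and library size. Whether the counting used strand is not given in the sources used here. Tables with the authors' own comparisons (log2 fold changes and p-values) were left unused.

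Both values were summed per gene with GENCODE M21, in which 141862 transcripts matched, and gene counts were rounded. They were analysed in R 4.3.3 with edgeR 4.0.16, using TMM factors, the default filter on low counts and a quasi-likelihood fit of group to all 12 libraries. The 4 comparisons and the interaction were contrasts of this fit. Benjamini-Hochberg adjustment covered 18995 genes, and the threshold was 0.05. Library totals ranged over 3.82 times, so genes with few reads, such as Socs1 without IFN-γ, are the least precise. CPM are TMM-normalized, and log2 CPM use a prior count of 2. The scripts were tested on simulated data.

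The 8 genes and the gene lists were chosen with earlier results of these data known. A further gene of the pathway is not reported here. Values are given for all 8 genes, for the 3 genes nearest to each in pattern, and for at most 4 genes of each other list, taken in order of adjusted p. The lists were other JAK and STAT proteins, cytokine receptors, ligands, negative regulators, textbook targets of IFN-γ and of STAT3, and markers of 7 cell types.

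The fits were repeated with DESeq2 1.42.0, with RLE factors, without the filter, with at least 10 counts required in every library, with a replicate block, on counts from length-scaled TPM, without mitochondrial and rRNA genes, on only the 6 libraries compared (with edgeR and with DESeq2), and without each library in turn. To see whether replicate numbers pair the libraries, deviations from the group means were correlated between same-numbered libraries. The correlations were 0.604, 0.493 and 0.642 between IFN-γ with EZH2i and IFN-γ, and 0.530, 0.496 and 0.621 between IFN-γ with EZH2i and EZH2i. In replicates 1, 2 and 3 they were 0.441, 0.0467 and 0.495 between EZH2i and Ctr, and 0.490, 0.0854 and 0.544 between IFN-γ and Ctr. The values of replicate 2 were under the limit of 0.1, so the comparisons with Ctr were not taken as paired. Replicates 1 and 3 were above that limit, so a shared origin of libraries with the same number is not excluded there. Promoter sequences are RefSeq's.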

Additional observations from a re-analysis of the deposited data

How the results depend on the processing

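The 6 genes that rose with IFN-γ were called in both comparisons under each of the 21 alternatives, and EZH2i and the interaction called 0 of the 8 under all that were run. The replicate block called 7 in both IFN-γ comparisons, Ifngr2 being added. Of the 18995 genes tested, it called 4032 in IFN-γ versus Ctr and 3661 in the cells given EZH2i, against 1663 and 1533 without the block. In IFN-γ versus Ctr, which was not taken as paired, the log2 fold change of Ifngr2 with the block was -0.41 (adjusted p = 0.0180 by edgeR). The block changed no other call among the 8 genes; Stat2 with EZH2i had an adjusted p of 0.0502 without IFN-γ and 0.0583 with it. Over all alternatives, genes called ranged from 11 to 771 for EZH2i versus Ctr, 7 to 748 for IFN-γ with EZH2i versus IFN-γ, 1111 to 4032 for IFN-γ versus Ctr, 1078 to 3661 for IFN-γ with EZH2i versus EZH2i, and 0 for the interaction.

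Changes of sign concerned only values that were not called, and their cause was not tested. With length-scaled TPM, Stat3 in EZH2i versus Ctr was -0.084 on the log2 scale, and the interaction was -0.00906 for Ifngr2, -0.12 for Stat2 and 0.078 for Stat3. The interaction of Ifngr2 was -0.011 without the filter and -0.028 with the replicate block. When each library was left out in turn, the log2 fold change in EZH2i versus Ctr ranged from -0.15 to 0.15 for Ifngr2, -0.022 to 0.054 for Stat3 and -0.10 to 0.48 for Socs1. In IFN-γ with EZH2i versus IFN-γ it ranged from -0.16 to 0.22 for Ifngr2, -0.23 to 0.12 for Jak2, -0.062 to 0.061 for Stat3, -0.13 to 0.15 for Socs1 and -0.23 to 0.15 for Socs3. The interaction ranged from -0.075 to 0.18 for Ifngr1, -0.18 to 0.21 for Ifngr2, -0.13 to 0.22 for Jak2, -0.068 to 0.12 for Stat2, -0.080 to 0.043 for Stat3 and -0.43 to 0.15 for Socs1. Depth limits Socs1 without IFN-γ most, and 3 libraries a group leave the intervals of the EZH2i comparisons wide. Taken of estimated counts in place of TPM, 129 transcript shares moved beyond the spread between replicates and 63 did not.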
